A study of Mus musculus with 3 samples.

Results

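Platelet-derived growth factor (PDGF) genes were read in the mouse lacrimal gland (LG), the gland behind the watery part of the tear film. They were taken as the ligands *Pdgfa* and *Pdgfb*, the receptors *Pdgfra* and *Pdgfrb*, and the receptor-like gene *Pdgfrl*, which are 5 of the 32285 genes in the count tables. They were chosen by name, and their counts were described across 13420 epithelial, endothelial, mural and fibroblast cells of 18344 cells kept, with immune cells for comparison. PDGF ligands are dimers that bind the receptor tyrosine kinases PDGFRα and PDGFRβ, and PDGF-AA acts through PDGFRα while PDGF-BB binds both receptors. In growing vessels, endothelial PDGF-B draws PDGFRβ-bearing pericytes to the vessel wall, and in many glands and organs epithelial PDGF-A signals to PDGFRα-bearing fibroblasts next to it. PDGFRL shares sequence with the outer part of PDGFRβ and carries no kinase.

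The study made single-cell RNA libraries from a female pool and from a pair of male pools, each of 6 LGs from 3 untreated C57BL/6J mice aged 2 months. The glands were digested with enzymes, dead cells and erythrocytes were depleted, and the counts are those of unique molecular identifiers (UMIs), which mark single captured RNA molecules at the 3′ end. The female pool went through the Scripps core, the male pools were run on a separate day by the Salk core, and sex was not tested because it cannot be told apart from core or day. Values are given in the order female, first male and second male library (Male replicate 1 and 2), and each library is a pool. The unit of a test is therefore the pool, of which there are 3. The tests (edgeR) borrow the spread of a gene from all genes tested. A very small p-value thus does not measure how closely the 3 pools matched for that gene.

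After filtering, the libraries held 7652, 5295 and 5397 cells, and their median depth per cell was 3252, 1884 and 1788 UMIs. Cell classes were named from markers that held none of the PDGF genes, and all 7 markers of the fibroblast, endothelial, mural, myoepithelial and duct lists were detected in their own class in every library. Fibroblast-like cells numbered 2881, endothelial-like cells 1764, mural-like cells 147 (50, 45 and 52) and epithelial-like cells 8628. Levels are CPM values, the UMIs of a gene scaled to a common total for each class and library, and they share their total with acinar tear products, which made up 25.0, 46.2 and 53.6% of the UMIs of fibroblast-like cells, 32.6, 51.3 and 61.7% in mural-like cells and 76.9, 83.5 and 84.6% in acinar-like cells. For that reason fold changes from edgeR were scaled by TMM, which moves the typical gene towards 0. The median log2 fold change over all genes tested was −0.12 for fibroblast-like cells against other cells under TMM and 1.42 under total UMIs. It was −0.04 and −1.80 for epithelial-like cells. For mural-like cells it was −0.65 and 0.89, so that the typical gene stayed below 0 there. A fold change is therefore nearly relative to the typical gene, except for mural-like against other cells, while CPM is relative to all RNA.

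*Pdgfra*, the receptor for all 3 pairings of the A and B chains, was close to a fibroblast gene in the LG (GRCm38 chr5:75152292-75198215, plus strand). It stood at 496, 379 and 239 CPM in fibroblast-like cells, from 2692, 432 and 196 UMIs, a mean of 371 ± 129 CPM (SD, n = 3). The next class, endothelial-like cells, held 1.51, 1.35 and 1.96 CPM, and the libraries of both classes did not overlap. Of 3342 *Pdgfra* UMIs in kept cells, 3320 (99.3%) lay in fibroblast-like cells. In mural-like cells the gene had no UMI in any library, which, at a floor of 3 UMIs, allows up to 17.9, 39.5 and 32.8 CPM.

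Depth differed between libraries, so each cell was thinned to 1000 UMIs before cells with a UMI were counted, which left out 51, 122 and 149 shallower fibroblast-like cells and 0, 0 and 12 mural-like cells. *Pdgfra* was then detected in 40.0% of fibroblast-like cells of the female library (95% exact binomial interval 37.6 to 42.4), 30.4% in the first male library (26.7 to 34.3) and 22.3% in the second (17.9 to 27.1). In lymphoid cells, which should lack it, the shares were 0, 0.344 and 0%. These cells are a pool that also held plasma cell genes, with several sub-clusters left unnamed. The library with the highest *Pdgfra* level had the lowest share of tear products in fibroblast-like cells, and the one with the lowest level had the highest share. With tear-product UMIs left out of the totals the levels were 662, 704 and 514 CPM, and the female library was no longer the highest.

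*Pdgfrb*, the receptor that marks pericytes and vascular smooth muscle, was present in both mural-like and fibroblast-like cells. Mural-like cells had 340, 211 and 218 CPM from 57, 16 and 20 UMIs, a mean of 256 ± 72.4 CPM (SD, n = 3). Fibroblast-like cells had 154, 106 and 88.8 CPM from 834, 121 and 73 UMIs, a mean of 116 ± 33.6 CPM. The mural level was higher in each of the 3 libraries, with a ratio of the means of 2.21 and no overlap. Mural-like cells held 6.33, 11.4 and 20.6% of the *Pdgfrb* UMIs of a library and fibroblast-like cells 92.6, 86.4 and 75.3%, so that most came from fibroblast-like cells in each library. Without tear-product UMIs the fibroblast levels nearly coincided, at 205, 197 and 191 CPM.

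After thinning, 32.0, 22.2 and 22.5% of mural-like cells and 14.1, 10.4 and 10.1% of fibroblast-like cells had a *Pdgfrb* UMI. The intervals of the mural shares are wide, 19.5 to 46.7% in the female library and 10.8 to 38.5% in the second male library, because each rests on at most 50 cells. Endothelial-like cells followed at 1.14, 0 and 5.87 CPM. MEC-like cells (myoepithelial cells, the contractile cells around the acini) and duct-like cells had no *Pdgfrb* UMI in any library. MEC-like and mural-like cells share smooth muscle genes, and 4 of the 7 MEC markers had no UMI in mural-like cells. Of these, the keratin genes *Krt14* and *Krt5* and the factor gene *Sox10* were at 915, 1179 and 1199 CPM, 485, 303 and 297 CPM and 82.3, 76.7 and 68.3 CPM in MEC-like cells, above the mural floors of 3 UMIs (17.9, 39.5 and 32.8 CPM), while *Oxtr* was too low in MEC-like cells (4.20 to 5.00 CPM) for its 0 to be read. The 7 epithelial markers summed to 113, 422 and 262 CPM in mural-like cells, with *Epcam* at 3, 4 and 1 UMIs, and to 112, 180 and 183 CPM in fibroblast-like cells.

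*Pdgfrl* was the rarest of the 5 genes, with 163 UMIs in kept cells, of which 92.6% were in fibroblast-like cells (93.5, 100 and 72.7% by library). There it stood at 23.8, 12.3 and 9.74 CPM (129, 14 and 8 UMIs). Mural-like cells held 1, 0 and 2 UMIs, and their levels overlapped those of fibroblast-like cells. Thinned fibroblast-like cells had a *Pdgfrl* UMI in 1.66, 1.01 and 0.593% of cases. In cells as deposited, the mean over libraries was 48.7% of fibroblast-like cells for *Pdgfra*, 40.0% of mural-like cells for *Pdgfrb* and 2.08% of fibroblast-like cells for *Pdgfrl*.

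**Figure D1:**
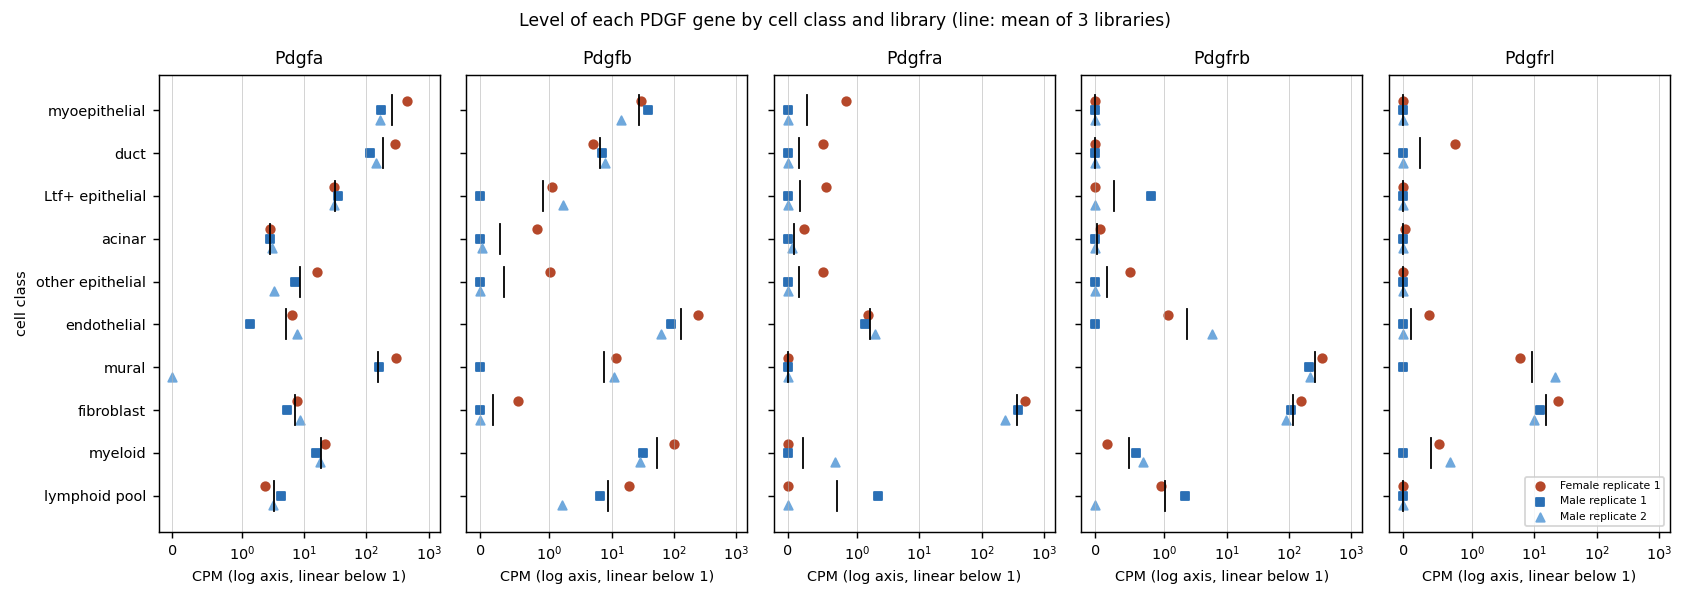
Level of the 5 PDGF genes (CPM, log axis that is linear below 1) in 10 cell classes, 1 point per library and a black line at the mean of the 3 libraries. *Pdgfra* is high in fibroblast-like cells (239 to 496 CPM) and at 0 in mural-like cells, *Pdgfrb* is high in both, *Pdgfb* is highest in endothelial-like and *Pdgfa* in MEC-like cells.

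In the comparison of fibroblast-like cells with all other cells, which asks where the receptors lie, the receptor genes were the higher ones and the ligands the lower ones. edgeR called 3 members higher and 2 lower, where 18.2% of 12760 genes were called higher and 22.7% lower. *Pdgfra* and *Pdgfrl* passed the filter on low counts only through fibroblast-like cells and *Pdgfb* only through the others, so these calls were bound to the filter and the count supports nothing. *Pdgfra* was higher by 9.63 on the log2 scale (SE 0.34, edgeR adjusted p = 7.47e-08), *Pdgfrb* by 5.62 (SE 0.24, adjusted p = 1.72e-07) and *Pdgfrl* by 5.90 (SE 0.54, adjusted p = 2.15e-05), each in 3 of 3 libraries by CPM. The PDGF genes were kept out of the clustering features, but the classes come from the same cells, so these tests describe classes and are no independent check of them.

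Both ligands were lower in fibroblast-like cells. *Pdgfb* was called lower (edgeR adjusted p = 4.1e-06), with 3, 0 and 0 UMIs in fibroblast-like cells. Over the 3 libraries its share of UMIs was 30.6 times higher in the other cells (exact 95% counting interval 10.4 to 148). *Pdgfa* fell by 3.01 (SE 0.40, edgeR adjusted p = 0.000236), at 7.74, 5.26 and 8.52 CPM against 40.9, 9.42 and 7.49 CPM, so that in the second male library the CPM was not lower.

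In mural-like cells against all other cells *Pdgfrb* was higher by 3.95 (SE 0.41, edgeR adjusted p = 1.45e-19) in 3 of 3 libraries, at 15.3, 3.30 and 1.87 CPM in the other cells. Of the 5 members, 2 were called higher, 1 lower and 2 not, where 4.51% of 11309 genes were called higher and 9.88% lower. *Pdgfra* was called lower (edgeR adjusted p = 1.67e-05), at least 2.79-fold, a bound from 3 UMIs over all mural-like cells, but it passed the filter only through the other cells. In each male library the floor lies above the level of the other cells (11.6 and 4.86 CPM), so no bound can be given there, and without the female library the adjusted p by edgeR was 0.235. *Pdgfb* was at −1.79 (SE 0.92, adjusted p = 0.208) and *Pdgfrl* at 1.58 (SE 1.28, adjusted p = 0.466), with 3 UMIs each in mural-like cells.

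The direct comparison of mural-like with fibroblast-like cells asks which receptor sets both stromal classes apart. *Pdgfrb* was higher in mural-like cells by 1.23 (SE 0.24, edgeR adjusted p = 0.000824), in 3 of 3 libraries, where 11.2% of 4110 genes were called higher and 15.2% lower. *Pdgfra* was at least 50.2-fold lower (edgeR adjusted p = 1.35e-07), but it passed the filter only through fibroblast-like cells, so that a gene of this kind had to differ. *Pdgfa*, *Pdgfb* and *Pdgfrl* had too few counts. The fibroblast markers summed to 400, 936 and 688 CPM in mural-like cells and to 26083, 23921 and 16751 CPM in fibroblast-like cells, and *Dpt* was at 0 in mural-like cells.

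Within fibroblast-like cells both receptors had low levels in the adventitial subset, from few UMIs in the male libraries. A subset was named only where its 10 leading genes held one of its markers, which left 7 of 12 sub-clusters unnamed (906, 380 and 286 cells), led by stress, interferon, immunoglobulin, tear-product or other genes. *Pdgfra* stood at 510, 438 and 344 CPM in parenchymal fibroblast-like cells and at 243, 80.7 and 21.4 CPM in adventitial ones, the latter from 103, 5 and 2 UMIs, with no overlap. *Pdgfrb* was at 174, 115 and 73.2 CPM against 75.5, 16.1 and 10.7 CPM, the latter from 32, 1 and 1 UMIs, with ranges that overlapped. The overlap was lost with subsets named by marker score alone, where parenchymal *Pdgfrb* was 178, 132 and 128 CPM. In the subset named for *Cxcl13*, *Pdgfrb* was also low, at 83.9, 23.1 and 34.7 CPM (52, 3 and 2 UMIs), while *Pdgfra* was 385, 254 and 191 CPM. Against the rest of the fibroblast-like cells the parenchymal level of *Pdgfra* was 0.0546, 0.31 and 0.66 higher (log2 ratio), while that of *Pdgfrb* was at 0.25, 0.16 and −0.33.

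*Pdgfrl* did not share this pattern. It lay almost wholly in a small subset led by *Mfap4*, *Cilp* and *Tnc* (70, 39 and 27 cells), at 496, 214 and 160 CPM, which held 114 of 129, 13 of 14 and 8 of 8 of the *Pdgfrl* UMIs of fibroblast-like cells. Parenchymal cells held 1, 0 and 0 and the unnamed cells 9, 1 and 0. In the female library the subset was 7.43 above the rest (log2 ratio), and after thinning 34.3% of its cells had a *Pdgfrl* UMI (23.3 to 46.6). Over the 3 libraries the mean of this share was 19.3%, with a lowest value of 8.33%. The study named this subset on these same libraries, where *Pdgfrl* goes with its markers, so its level there is a description and has no test. *Pdgfra* in the same subset was 623, 346 and 379 CPM, above the parenchymal level in the female and second male libraries and below it in the first male library.

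Some fibroblast-like cells held both receptors. After thinning, 98 of 1627, 23 of 595 and 11 of 337 cells had a UMI of *Pdgfra* and of *Pdgfrb*. Cells with *Pdgfra* had *Pdgfrb* in 15.1, 12.7 and 14.7% of cases, and cells without it in 13.4, 9.42 and 8.78%. At 1000 UMIs a cell most transcripts are missed, so a cell with neither cannot be read as lacking them.

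Mural-like cells fell into smooth muscle-like cells and a pair of small groups that were left unnamed. *Pdgfrb* stood at 212, 186 and 125 CPM in smooth muscle-like cells (25, 8 and 5 UMIs). A group led by the inflammatory genes *Ifit3*, *Cxcl10* and *Ccl19*, which scored for pericyte markers, had 520, 217 and 104 CPM (19, 5 and 4 UMIs in 14, 15 and 18 cells). A group led by *Abcc9*, *H2-D1* and *Ccl11* had the highest level in each library. Its levels were 962, 303 and 835 CPM (13, 3 and 11 UMIs in 6, 8 and 14 cells). *Abcc9* is on the pericyte marker list, but the group did not score for the pericyte or the smooth muscle list. *Pdgfrb* was itself among the 10 leading genes of that group, so its level there is a description, and the intervals of all 3 groups are wide.

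**Figure D2:**
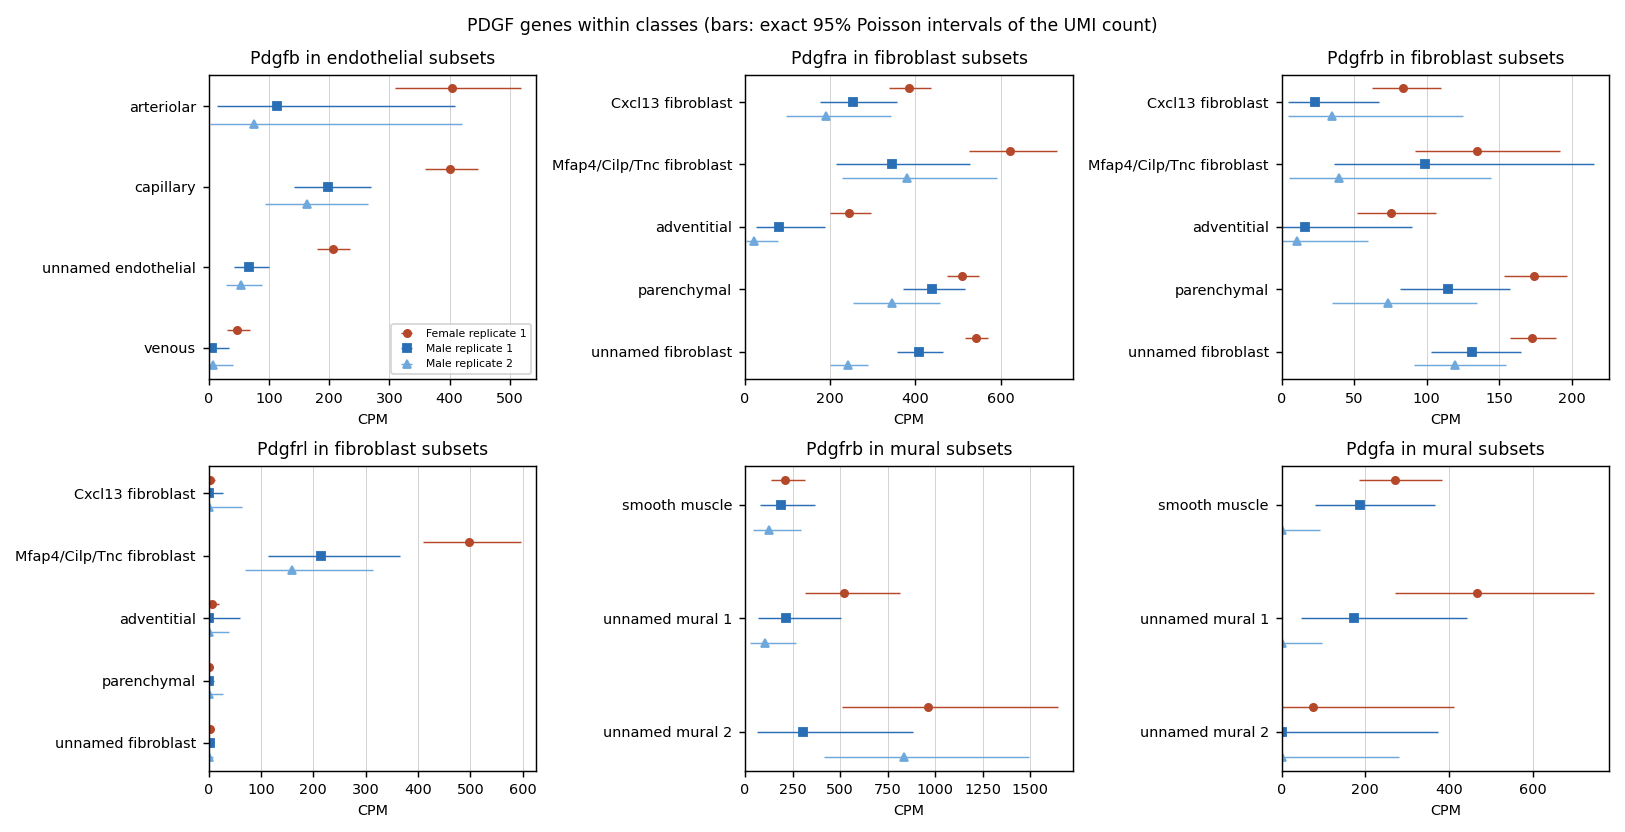
Level of PDGF genes (CPM, linear axes) in subsets of endothelial-like, fibroblast-like and mural-like cells, 1 point per library, with bars for exact 95% Poisson intervals of the UMI count. *Pdgfrl* lies mostly in the *Mfap4*, *Cilp* and *Tnc* subset, adventitial cells lie low for *Pdgfra* and *Pdgfrb* (1 UMI of *Pdgfrb* in each male library), and the second unnamed mural group (unnamed mural 2, led by *Abcc9*) reaches 962 CPM of *Pdgfrb* in the female library. The level of *Pdgfrb* in the *Cxcl13* subset was also low (23.1 to 83.9 CPM).

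*Pdgfa*, the ligand of PDGFRα, had its highest mean level in MEC-like cells (GRCm38 chr5:138976014-138997370, minus strand). MEC-like cells had 445, 168 and 167 CPM (530, 101 and 71 UMIs), a mean of 260 ± 160 CPM (SD, n = 3). Duct-like cells had 291, 114 and 142 CPM (1144, 66 and 55 UMIs), a mean of 182 ± 94.9 CPM. MEC-like cells were above duct-like cells in 3 of 3 libraries, with a ratio of the means of 1.43, but the ranges overlapped. Mural-like cells, described further on, had 298, 158 and 0 CPM, above duct-like cells in the female and first male libraries. *Ltf+* epithelial cells, a class marked by lactoferrin, had 30.3, 34.6 and 30.4 CPM and acinar-like cells 2.81, 2.80 and 3.01 CPM.

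The class that held most *Pdgfa* UMIs differed between libraries: duct-like cells held 54.9, 18.9 and 17.7%, MEC-like cells 25.4, 28.9 and 22.9% and the many acinar-like cells 4.08, 23.7 and 32.3%. The acinar level is close to the 2.57, 2.28 and 2.21 CPM of *Pdgfa* in the uncalled barcodes with 100 to 1000 UMIs. Whether the acinar share comes from these cells or from free RNA was not tested. After thinning, 32.7, 14.7 and 16.5% of MEC-like cells and 25.8, 10.1 and 12.6% of duct-like cells had a *Pdgfa* UMI, with intervals of 27.7 to 38.0% and 23.1 to 28.6% in the female library. The female shares were the highest in both classes. Unthinned, the mean share was 40.4% of MEC-like cells, and in thinned cells lymphoid cells had 0, 0.687 and 0.794%. The gene *6330403L08Rik* overlaps *Pdgfa* on the other strand and had 107 UMIs in all.

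**Figure D3:**
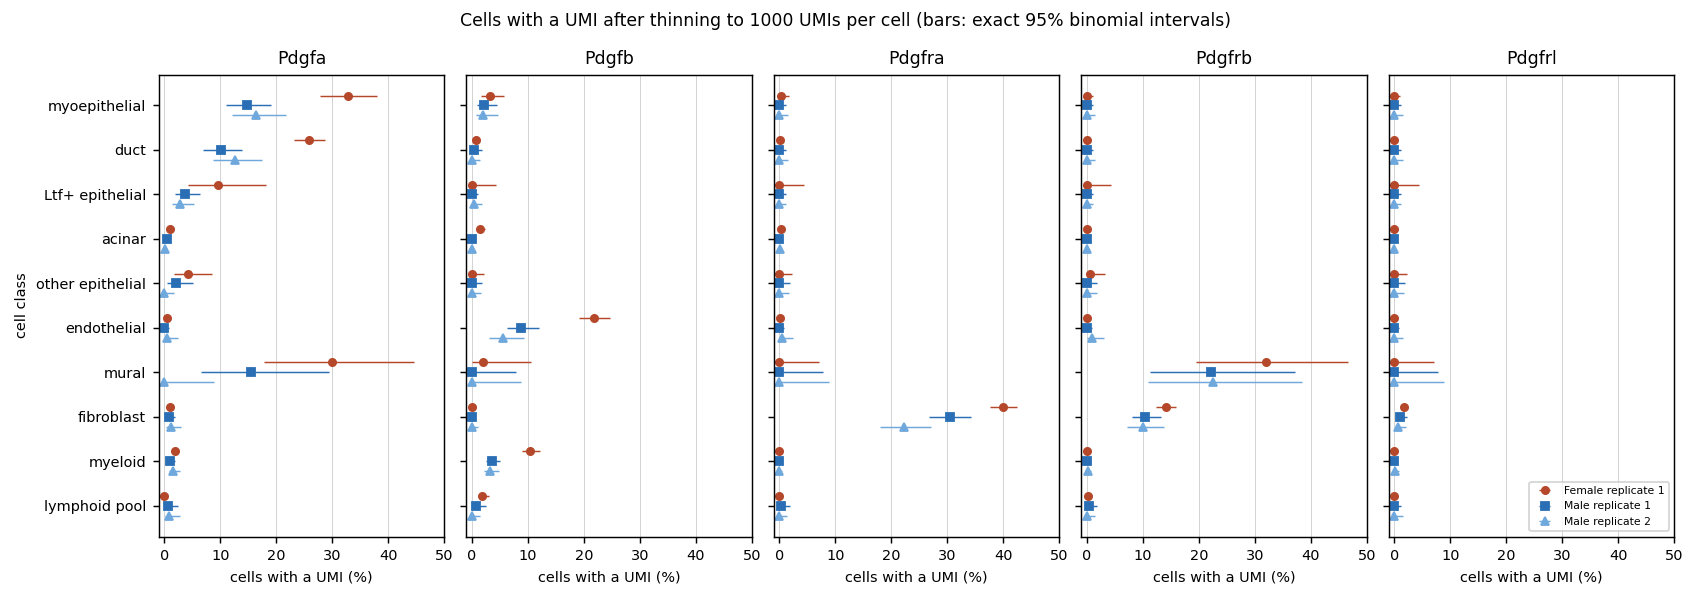
Share of cells with at least 1 UMI of each PDGF gene after thinning to 1000 UMIs per cell, by class and library, with exact 95% binomial intervals. *Pdgfa* reaches 32.7% in MEC-like cells of the female library and is at 0 in mural-like cells of the second male library, and *Pdgfra* is near 0 outside fibroblast-like cells.

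The sequence before the transcription start is shown for *Pdgfra* and for both starts that RefSeq gives *Pdgfa*, because the former was read in the stroma and the latter in the ducts and MECs. The 250 bases are those of the strand of the gene in GRCm38.p6, and capitals mark matches to the GC box (GGGCGG, on the other strand CCGCCC), the element that Sp1 binds. The stretches are *Pdgfra* at chr5:75152001-75152250 on the plus strand, and *Pdgfa* at chr5:138994282-138994531 and chr5:138994945-138995194 on the minus strand. The *Pdgfra* stretch ends before the GENCODE gene start given above, and no GENCODE transcript held the 30 bases after that RefSeq start, against 1 and 2 transcripts for the *Pdgfa* starts. Both *Pdgfa* stretches lie inside the GENCODE span given above for that gene.
Pdgfra: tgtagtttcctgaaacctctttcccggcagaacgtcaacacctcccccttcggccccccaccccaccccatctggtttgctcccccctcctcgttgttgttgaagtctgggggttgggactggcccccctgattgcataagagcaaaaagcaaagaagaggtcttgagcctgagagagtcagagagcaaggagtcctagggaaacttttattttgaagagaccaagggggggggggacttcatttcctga
Pdgfa, start 1: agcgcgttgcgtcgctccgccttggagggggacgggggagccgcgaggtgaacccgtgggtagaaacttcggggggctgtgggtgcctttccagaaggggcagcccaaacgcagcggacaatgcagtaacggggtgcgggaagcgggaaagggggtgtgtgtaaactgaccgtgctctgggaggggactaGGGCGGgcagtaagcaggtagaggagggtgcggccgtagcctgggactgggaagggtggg
Pdgfa, start 2: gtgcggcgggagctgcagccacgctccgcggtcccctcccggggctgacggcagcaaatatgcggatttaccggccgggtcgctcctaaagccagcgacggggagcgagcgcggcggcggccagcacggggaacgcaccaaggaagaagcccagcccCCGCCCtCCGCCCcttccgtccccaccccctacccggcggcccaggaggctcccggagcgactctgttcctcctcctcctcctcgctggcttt
The *Pdgfra* stretch held no GC box and had 54.4% G and C, while the *Pdgfa* stretches held 1 and 2 GC boxes at 66.4 and 72.4% G and C. Among 32851 promoters of the same length 32.7% held a GC box, 12.4% held TATAAA on either strand and the median was 52.4% G and C. None of the 3 stretches held TATAAA. Counts of 3′ ends cannot tell the *Pdgfa* starts apart.

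Against all other epithelial cells, *Pdgfa* was higher in MEC-like cells by 2.17 (SE 0.25, edgeR adjusted p = 0.000376) and *Pdgfb* by 3.73 (SE 0.66, adjusted p = 0.00345), each in 3 of 3 libraries. Of 11195 genes, 14.2% gave a higher call and 30.6% a call in either direction, and *Pdgfb* passed the filter only through MEC-like cells, so that its call was bound to it. The other epithelial cells had 34.6, 6.15 and 5.37 CPM of *Pdgfa* and 1.29, 0.122 and 0.161 CPM of *Pdgfb*. Acinar-like cells held 30284208, 29625193 and 33244925 of the 37991197, 32857481 and 37260451 UMIs of these other cells, so the test was mostly against acinar RNA. *Pdgfra*, *Pdgfrb* and *Pdgfrl* were too low to be tested, with 1 *Pdgfra* UMI in MEC-like cells.

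In duct-like cells against the other epithelial cells *Pdgfa* was higher by 1.82 (SE 0.20, edgeR adjusted p = 1.93e-06), in 3 of 3 libraries. By UMIs those other cells were again mostly acinar-like. They included the MEC-like cells, whose *Pdgfa* level was above that of duct-like cells. *Pdgfb* was at 0.02 (SE 0.71, adjusted p = 0.988), so that 1 of 2 members tested was called, where 15.4% of 10888 genes were called higher and 19.9% lower. *Pdgfb* in duct-like cells was 5.08, 6.92 and 7.76 CPM against 1.82, 0.70 and 0.241 CPM. By CPM it was higher in 3 of 3 libraries, and under total UMIs it was called higher by 2.42 (edgeR adjusted p = 6.39e-05), where the median gene stood at 2.28. Without the female library it was also called, at 1.82 (edgeR adjusted p = 0.0361). *Pdgfb* passed the filter only through duct-like cells.

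Across the whole epithelium, in which acinar-like cells are the largest class, the level of *Pdgfa* differed between libraries. *Pdgfa* was 47.1, 9.06 and 7.19 CPM in epithelial-like cells and 14.8, 11.2 and 10.9 CPM in other cells, so CPM was higher in the female library only. edgeR called it higher by 2.12 (SE 0.47, adjusted p = 0.0102), and under total UMIs it was at 0.35 with an edgeR adjusted p of 0.508. *Pdgfb* (−3.62), *Pdgfra* (−8.07), *Pdgfrb* (−8.19) and *Pdgfrl* (−5.32) were called lower in epithelial-like cells. Of 13423 genes, 23.4% gave a higher and 28.1% a lower call, and *Pdgfb* and the 3 receptor genes passed the filter only through the other cells, so that all 4 lower calls were bound to it.

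In mural-like cells *Pdgfa* stood at 298, 158 and 0 CPM. The female library had 50 UMIs in 30 of 50 cells and the first male library 12 UMIs in 9 of 45 cells, with at most 4 in 1 cell. The second male library had none in 52 cells, which allows up to 32.8 CPM. edgeR gave 1.36 (SE 0.44, adjusted p = 0.0195) against all other cells, higher in 2 of 3 libraries. The call was lost with DESeq2 (1.25, adjusted p = 0.321), without the female library (1.08, adjusted p = 0.640) and without the first male library (0.95, adjusted p = 0.456). With stricter doublet removal the mural class went from 50, 45 and 52 to 25, 36 and 46 cells. All other cells went from 7602, 5250 and 5345 to 6981, 4972 and 5036. The mural class therefore lost the larger share of its cells in each library, most in the female library. Of the 7 duct markers 6 had no UMI in mural-like cells, and the list summed to 5.96, 26.4 and 0 CPM there against 5964, 4206 and 4587 CPM in duct-like cells. *Krt14*, *Krt5* and *Sox10* were also at 0, while *Epcam* stood at 17.9, 52.7 and 10.9 CPM, beside 10.3, 19.3 and 14.6 CPM in fibroblast-like cells.

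*Pdgfb*, whose product binds both receptors, was an endothelial gene that myeloid cells also carried (GRCm38 chr15:79995874-80014977, minus strand). Endothelial-like cells had 243, 90.3 and 62.6 CPM (641, 67 and 32 UMIs), a mean of 132 ± 97.0 CPM (SD, n = 3). Myeloid-like cells had 98.5, 31.8 and 28.3 CPM (569, 54 and 41 UMIs), a mean of 52.9 ± 39.6 CPM. Endothelial-like cells were higher in 3 of 3 libraries by a ratio of the means of 2.49, but the ranges overlapped. They held 47.8, 44.4 and 36.8% of the *Pdgfb* UMIs and myeloid-like cells 42.4, 35.8 and 47.1%, so that the order turned in the second male library.

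MEC-like cells had 29.4, 38.3 and 14.1 CPM (35, 23 and 6 UMIs), below myeloid-like cells in the female and second male libraries and above them in the first male library, with ranges that overlapped. The endothelial markers summed to 27.7, 13.3 and 40.1 CPM in MEC-like cells and to 7104, 3458 and 2651 CPM in endothelial-like cells. In myeloid-like cells they summed to 10.4, 14.7 and 12.4 CPM. After thinning, 21.8% (19.1 to 24.7), 8.88% (6.36 to 12.0) and 5.60% (3.02 to 9.39) of endothelial-like cells had a *Pdgfb* UMI, and 1.88, 0.687 and 0% of lymphoid cells did.

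Against all other cells *Pdgfb* was higher in endothelial-like cells by 3.47 (SE 0.24, edgeR adjusted p = 9.17e-11), in 3 of 3 libraries, at 13.3, 2.28 and 1.35 CPM in the others. The other members tested were lower: *Pdgfa* at −3.40 (edgeR adjusted p = 3.16e-07), *Pdgfra* at −5.64 (2.69e-09) and *Pdgfrb* at −3.94 (3.75e-05). *Pdgfrb* passed the filter only through the other cells, so its call was bound to the filter. By CPM *Pdgfa* and *Pdgfrb* were lower in 2 of 3 libraries, and *Pdgfa* in the second male library was 7.82 against 7.51 CPM. Of 12371 genes, 15.7% gave a higher and 25% a lower call. *Pdgfrl* was not tested.

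Among the named endothelial subsets *Pdgfb* was lowest in venous-like cells. Capillary-like cells stood at 401, 198 and 163 CPM (325, 40 and 16 UMIs) and venous-like cells at 46.9, 6.12 and 7.36 CPM (27, 1 and 1 UMIs), with no overlap. Arteriolar-like cells had 404, 113 and 75.6 CPM, the last pair from 2 and 1 UMIs. The sub-clusters left unnamed, led by tear-product, haemoglobin, stress or other genes, had 207, 66.9 and 53.0 CPM. In the female library the capillary level was 1.22 above the rest of the endothelium and the venous level was at −2.66 on the log2 scale.

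**Figure D4:**
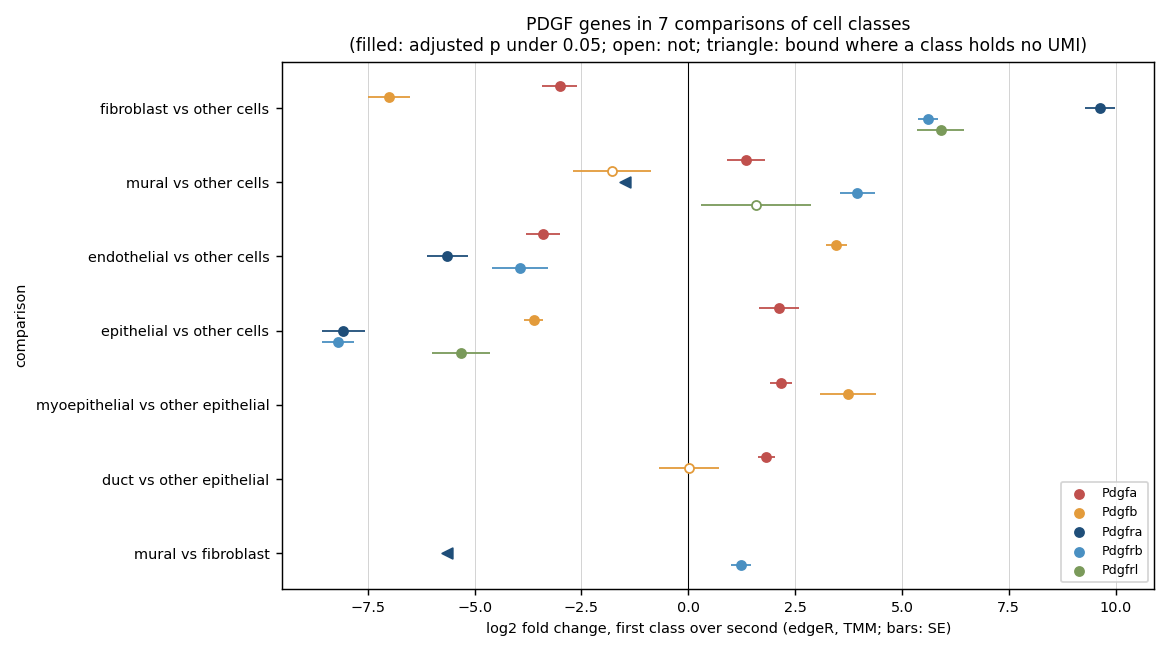
Log2 fold change of each tested PDGF gene in 7 comparisons of classes (points with SE bars, filled where the edgeR adjusted p is under 0.05). Triangles are bounds of *Pdgfra* in mural-like cells, taken from shares of UMIs with 3 UMIs over the class and without TMM. Receptors lie to the right for fibroblast-like cells and ligands to the left, with *Pdgfra* at 9.63 and *Pdgfb*, from 3 UMIs in these cells, at −7.01.

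The other PDGF ligands split between the epithelium and the stroma. *Pdgfc*, which like *Pdgfd* needs to be cut before it binds, was highest in MEC-like cells at 113, 55.0 and 73.0 CPM, above the next class without overlap. It was higher there than in other epithelial cells by 3.35 (SE 0.31, edgeR adjusted p = 0.000115). *Pdgfc* in duct-like cells was at 0.63 (edgeR adjusted p = 0.199), and in fibroblast-like and endothelial-like cells it fell by 3.19 and 2.93 against other cells. The call in duct-like cells was gained without the female library (1.58, edgeR adjusted p = 0.00349) and under total UMIs, and that in endothelial-like cells was lost without the female library (adjusted p = 0.119).

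*Pdgfd*, a ligand of PDGFRβ, was low everywhere, with 147 UMIs in kept cells. Endothelial-like cells had 25.0, 5.39 and 9.78 CPM and fibroblast-like cells 9.96, 4.38 and 2.43 CPM. It was called higher in both, by 3.56 and by 1.88 (edgeR adjusted p = 0.0169 for the latter, and 0.0566 without the first male library). In each of these comparisons *Pdgfd* passed the filter on low counts only through the class tested, so both calls were bound to the filter. *Pdgfd* stood at 44.9, 16.1 and 21.4 CPM in adventitial cells (19, 1 and 2 UMIs), at 52.3, 33.0 and 0 CPM in the *Mfap4*, *Cilp* and *Tnc* subset (12, 2 and 0 UMIs) and at 66.2, 56.7 and 0 CPM in arteriolar-like cells (10, 1 and 0 UMIs). In the female library these were 2.68, 2.69 and 1.56 above the rest of their class (log2 ratio), and the male values rest on 2 UMIs at most.

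The pathway list of 24 other genes was chosen by role: the ligands *Pdgfc* and *Pdgfd*, processing enzymes, co-receptors, signalling adaptors and negative regulators. In fibroblast-like cells 10 of 24 were called higher and 4 lower (18.2 and 22.7% of all genes), with a median of 0.40. The largest changes were *Plat*, tissue plasminogen activator, which cuts PDGF-C, at 5.20, and *Lrp1*, a co-receptor of PDGFRβ, at 4.70, while *Furin*, a proprotein convertase, fell by 2.52 and *Ptprj*, a phosphatase, by 2.10 (edgeR adjusted p of *Ptprj* 0.148 under total UMIs). *Nrp1*, a co-receptor of several growth factors, was higher by 1.86.

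In endothelial-like cells 8 of 24 were called higher and 7 lower (15.7 and 25% of all genes), with a median of −0.25. *Nrp1* was higher by 3.87 (edgeR adjusted p = 3.61e-12), at 639, 297 and 260 CPM, and *Plcg1*, a phospholipase downstream of the receptors, by 2.28. *Lrp1* was called lower with 1 UMI in endothelial-like cells, its share of UMIs being 132 times higher in the other cells (exact 95% counting interval 23.7 to 5226). *Lrp1* passed the filter only through the other cells, so its call was bound to the filter. The kinase gene *Src* fell by 3.55 and *Plau*, urokinase, fell by 2.77. In mural-like cells none of 24 was called higher and 3 lower (4.51 and 9.88% of all genes), with a median of −0.69 beside −0.65 over all genes. Of these, *Plau* and *Ptprj* had no UMI and passed the filter only through the other cells, so both calls were bound to it. Both calls were also lost whichever library was left out, while *Furin* fell by 2.88. There *Pdgfc* was at 1.46 (edgeR adjusted p = 0.192), *Pdgfd* at 1.10 (0.709) and *Nrp1* at 0.02 (0.992).

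In epithelial-like cells 5 of 24 were called higher and 12 lower (23.4 and 28.1% of all genes), with a median of −0.36. *Pdgfc* was higher by 2.46 (edgeR adjusted p = 0.0131, and 0.320 under total UMIs and 0.0525 without the first male library), while *Nrp1* fell by 5.54, *Plau* fell by 5.48 and *Pdgfd* fell by 4.14. *Pdgfd* passed the filter only through the other cells, so its call was bound to the filter. *Plat* (−3.83), *Lrp1* (−3.77) and the adaptor *Grb2* (−1.77) were also called lower. In MEC-like cells 5 of 22 tested were higher and 2 lower (14.2 and 16.4% of all genes), with a median of 0.23: *Lrp1* (3.37) and *Plat* (2.61, edgeR adjusted p = 0.146 without the second male library) were higher. *Furin* fell by 2.32 and *Ptprj* by 1.89, which were −0.05 and 0.35 under total UMIs. *Nrp1* there was at 1.01 (edgeR adjusted p = 0.236).

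In duct-like cells 4 of 23 tested were higher and 2 lower (15.4 and 19.9% of all genes), with a median of 0.22. *Plcg1* (1.57), *Lrp1* (1.45) and the ubiquitin ligase *Cblb* (1.24) were higher, the last with an edgeR adjusted p of 0.299 without the female and 0.0645 without the first male library. *Ptprj* fell by 1.85 (0.51 under total UMIs) and *Nrp1* was at −1.29 (edgeR adjusted p = 0.201). Between mural-like and fibroblast-like cells none of 11 tested was higher and 5 were lower in mural-like cells (11.2 and 15.2% of all genes), with a median of −0.73. *Lrp1* fell by 3.00, *Plat* fell by 2.13 and *Nrp1* fell by 1.04 (edgeR adjusted p = 0.0201). The adaptors *Shc1* and *Nck1* were called lower from 2 and 3 UMIs in mural-like cells, with shares of UMIs 7.06 and 6.53 times higher in fibroblast-like cells (exact 95% counting intervals 1.94 to 58.5 and 2.22 to 31.8). With so few UMIs both adaptors passed the filter only through fibroblast-like cells, so their calls were bound to it. Without the female library the adjusted p was 0.106 for *Shc1*, 0.269 for *Nck1*, 0.254 for *Plat* and 0.224 for *Nrp1*. Without the first male library it was 0.106 for *Shc1* and 0.0548 for *Nrp1*, and without the second 0.0553 for *Shc1*.

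Genes with the most similar pattern were sought by Pearson's r of log2(CPM + 1) over 33 sums of class and library, among 12017 genes. Points of 1 library share its depth and free RNA, so r is a description. *Pdgfra* was most like *Tspan11* (r = 0.98), followed by *Epyc*, *Sfrp2*, *Srpx2* and *Cilp*. *Pdgfrb* was most like *Prrx1* (0.98), then *Dact1*, *Rarres2*, *Ebf2* and *Nr2f1*, and *Pdgfrl* most like *Avpr1a* (0.96), then *Barx1*, *Tnxb*, *C1qtnf7* and *Tbx18*.

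*Pdgfa* was most like *Plxnb1* (0.88), followed by *Slc16a7*, *Coq8a*, *Foxc2* and *Fbxo32*, and *Pdgfb* most like *Prdm1* (0.82), followed by *Entpd1*, *Rapgef2*, *Lrrc8c* and *Ehd4*. With 10 in place of 1 added to CPM, 3 of the 5 genes stayed on the list for *Pdgfa*, 2 for *Pdgfrl* and 1 each for *Pdgfb*, *Pdgfra* and *Pdgfrb*.

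For all 5 members the female library was the highest in the class with the highest mean, and it was also the deepest and had the lowest share of tear products. *Pdgfb* in endothelial-like cells without tear-product UMIs was 349, 194 and 137 CPM and *Pdgfa* in MEC-like cells 596, 324 and 318 CPM, so that the female library stayed highest for both. *Pdgfrl* in fibroblast-like cells was then 31.7 CPM in the female library, again the highest, and 22.8 CPM in the first male library. *Pdgfrb* in mural-like cells was 505, 433 and 571 CPM, highest in the second male library, and *Pdgfra* in fibroblast-like cells was highest in the first (662, 704 and 514 CPM). Sex, core, day and free RNA cannot be told apart here. In bulk sums of this kind, fewer cells with the transcript and fewer transcripts per cell cannot be told apart either, and all intervals cover counting error only.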

How the data were processed

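UMI counts per gene and barcode were deposited for 3 libraries, made by the authors with Cell Ranger 6.1.2 on mm10 per the submitters' processing notes (the header of the full set names another release), before their own ambient-RNA correction and cell filters. The annotation release is not given in the sources used here. GENCODE M21 gave gene positions, and the RefSeq table used here (GRCm38.p6) gave the promoters of *Pdgfa* and *Pdgfra*.

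A barcode was kept above 500 UMIs and 200 genes if under 15% of its UMIs were mitochondrial, and the highest scrublet scores were removed at 0.8% per 1000 barcodes (646, 287 and 315 cells). Counts were normalized with sctransform 0.4.2, integrated on 3000 features and 30 dimensions and clustered at resolution 1 in Seurat 5.3.0. The features held neither the PDGF and pathway genes nor the tear products (270 genes in all). Clusters were named where their markers scored at least 0.5 with 3 raised, and subsets also needed a marker among their 10 leading genes (a condition added after seeing the data); the study's names were rebuilt here and may differ. Libraries shared 8, 13 and 10 barcodes in pairs.

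UMIs were summed per library and arm and tested with edgeR 4.0.16 (filterByExpr, TMM, quasi-likelihood test, two-sided) with library as a block, since both arms of a library come from 1 suspension. Calls needed a Benjamini-Hochberg adjusted p under 0.05 over all genes tested. The 7 comparisons share cells. On simulated counts with known changes, 16-fold changes were found in 53% of cases for mural-like cells and in 81% to 96% for the other comparisons, and 4-fold changes in 12% and in 46% to 76%. The simulation gave every gene the same spread (dispersion) and no difference between libraries beyond their totals. These rates may therefore not hold for the real counts. Named were the 5 members, *Pdgfc*, *Pdgfd* and *Nrp1* in every comparison where they passed the filter, and up to 4 called pathway genes with the largest change. The members and lists were chosen with earlier results of these data known. Alternatives were DESeq2 1.42.0, total UMIs, no filter on low counts, each library left out, no block, stricter cell and doublet filters, subtraction of free RNA (10 to 100 UMIs per uncalled barcode, or 100 to 1000, which was added after seeing the data) and clustering without integration in scanpy 1.11.5.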

Additional observations from a re-analysis of the deposited data

Results flagged for a closer look

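*Pdgfa* in epithelial-like against other cells had opposite directions by CPM in the female and the male libraries. It was 47.1 CPM in epithelial-like and 14.8 CPM in other cells of the female library. It was 9.06 and 11.2 CPM in the first male library and 7.19 and 10.9 CPM in the second. The difference between the sexes was not tested, since there is 1 female library.

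Uncalled barcodes of 100 to 1000 UMIs, which entered the comparisons only through the alternative that subtracts free RNA, held transcripts of 3 members above the floor of 3 UMIs in every library. *Pdgfa* had 68, 49 and 81 UMIs (2.57, 2.28 and 2.21 CPM), *Pdgfra* 25, 16 and 10 UMIs and *Pdgfrb* 12, 5 and 4 UMIs. Acinar-like cells had 2.81, 2.80 and 3.01 CPM of *Pdgfa*. Whether these barcodes are free RNA or small cells was not tested.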

How the results depend on the processing

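Over the alternatives, 305 values of the members kept their direction and side of the threshold, 9 lost the call, 2 gained it and 6 reversed; for the pathway genes these numbers were 506, 47, 5 and 10. The number of members called in mural-like against other cells was 3 and was 1 without the female library (1 to 3 over the libraries left out). In duct-like cells it was 1, and 2 under total UMIs and without the female library (1 to 2). Whichever library was left out, fibroblast-like and epithelial-like cells had 5 called members, endothelial-like cells 4 and MEC-like cells 2, and 2 to 3 between mural-like and fibroblast-like cells.

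Among the reversals, *Pdgfb* in duct-like cells (0.02) was −0.0301 without the filter, −0.52 without either male library (1.82 without the female library), −0.13 under 5% mitochondrial UMIs and −0.14 above 1000 UMIs. *Pdgfrl* in mural-like cells (1.58) was −0.0544 without the second male library and 1.73 without the first. *Nrp1* in mural-like cells (0.02) was −0.0826 without the filter, −0.27 and −0.22 without the first and second male library (0.68 without the female library), −0.12 above 1000 UMIs, −0.0949 without integration and −0.26 after subtraction of free RNA. Under total UMIs *Ptprj* was 0.35 in MEC-like and 0.51 in duct-like cells and *Nrp1* 1.08 in duct-like cells, where that scaling moved the median gene by over 2 on the log2 scale. *Nrp1* in duct-like cells (−1.29) was also 0.52 without the female library and −1.90 without the second male library. The cause of the other reversals was not tested.

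Total UMIs in place of TMM moved the balance of higher and lower calls, which did not turn for epithelial-like cells or between mural-like and fibroblast-like cells. Genes higher and lower were 2326 and 2891 under TMM and 8729 and 1091 under total UMIs for fibroblast-like cells, 510 and 1117 against 1692 and 164 for mural-like cells, 1943 and 3098 against 6767 and 1101 for endothelial-like cells, 3146 and 3775 against 625 and 10959 for epithelial-like cells, 1585 and 1836 against 8784 and 217 for MEC-like cells, 1678 and 2172 against 9517 and 221 for duct-like cells, and 462 and 626 against 427 and 730 between mural-like and fibroblast-like cells. Without the replicate block, *Pdgfa* in mural-like cells was 1.62 (edgeR adjusted p = 0.132); the block changed no other call of a member and, among pathway genes, those of *Plau* in mural-like (0.0734), *Plat* in MEC-like (0.0784) and *Lrp1* in duct-like cells (0.0507). The call of *Pdgfa* in mural-like cells was also lost without the filter (adjusted p = 0.0599) and after subtraction of free RNA (0.224 and 0.0849). Genes called in mural-like cells were 1627, and 990 with DESeq2, 387 without the female library and 971 and 965 without the first and second male library. Between mural-like and fibroblast-like cells they were 1088, and 716 with DESeq2 and 444 without the female library. Calls fell from 6921 to 4593 for epithelial-like cells without the first male library, and from 3421 to 2125 for MEC-like cells without the second.

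*Pdgfb* in endothelial-like against myeloid-like cells was 1.32 (log2 ratio of the mean levels) and 0.92 per cell, and *Pdgfrb* in mural-like against fibroblast-like cells 1.14 and 1.35 without tear products. With subsets named by marker score alone, a choice replaced after seeing the data, *Pdgfb* was 312, 139 and 122 CPM in capillary-like and 44.4, 4.57 and 5.45 CPM in venous-like cells, and *Pdgfrb* was 178, 132 and 128 CPM in parenchymal cells, which no longer overlapped the adventitial levels. Without the female library mural-like cells held 15.2% of the *Pdgfrb* UMIs, and 8.17% with it. Few cells limit the mural class, whose *Pdgfb* and *Pdgfrl* rest on 3 UMIs each.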
